A study of Homo sapiens with 16 samples.

Results

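Homologous recombination repairs broken DNA by copying the sister chromatid, the Fanconi anaemia pathway removes crosslinks between the strands, and the checkpoint kinases hold the cell cycle while repair proceeds. A list of 39 human genes of these processes was examined, and 34 of them had a probe set that the platform annotation gives to that gene alone. All 34 passed the filter on low values, among 12978 genes tested of 18417 with such a probe set. BRCA2, RBBP8, FANCA and FANCD2 were not analysed here, and ATRIP was left out because its probe set is shared with TREX1.

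The arrays came from 16 cultures of 3 established human cancer lines that differ in STAG2, which encodes a component of cohesin, the complex that keeps sister chromatids together after replication. In H4, the STAG2-mutant group was the parental line with non-recombinant clones 10 and 12, and the corrected group was post-Cre knock-in clones 8-1, 8-3 and 88-1. In 42MGBA, the deficient group was the mutant parental line with pre-Cre knock-in clones 53 and 92, and the corrected group was post-Cre clones 53-1, 53-7 and 92-6. In HCT116, the knockout clones 7 and 21 were set against the non-recombinant wild-type clones 24 and 27. All cultures were untreated, subconfluent and proliferating without synchrony in DMEM with serum, and each array is 1 clone or parental culture, so a p-value here reflects only how much such clones vary, which may be partly technical. Clones 8-1 and 8-3, by their names, share a parent clone, as do 53-1 and 53-7 with 53, and 92-6 with 92.

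STAG2 itself checked the labels. It stood at 6.57, 6.96 and 6.62 log2 units in H4 deficient cultures, against 8.94, 8.91 and 8.87 in H4 corrected clones, and at 6.57 and 7.14 in HCT116 knockout clones, against 9.28 and 9.30 in wild-type clones. Both differences passed the test across all genes (limma: log2 difference -2.19 ± 0.19 SE, adjusted p = 2.37e-05, n = 3 and 3 arrays, and -2.44 ± 0.23, adjusted p = 0.000115, n = 2 and 2), although HCT116 fitted alone gave an adjusted p of 0.0616. In 42MGBA the deficient cultures had 4.75, 5.34 and 5.60 and the corrected clones 5.65, 5.41 and 5.53, groups that overlapped with an adjusted p of 1.00 (limma), and so the level of STAG2 mRNA did not separate the 42MGBA groups. The 42MGBA arrays also lie on another scale, with array medians no higher than 5.05 log2 units, where no H4 array was under 6.23 and no HCT116 array under 6.24, and values of 42MGBA are therefore compared only within that line or as ranks within an array. The labels call H4 and 42MGBA glioblastoma cells. By mean percentile within the arrays, 4 of 10 glial and mesenchymal markers lay above the median in H4 (VIM, CD44, FN1 and CDH2) and 6 in 42MGBA (the same with COL1A2 and NES), while GFAP, S100B, SOX2 and OLIG2 lay below it in both. CD44 was also high in HCT116 (95.7). The epithelial keratins KRT8 and KRT18 also lay above the median in H4 (79.4 and 91.4) and in 42MGBA (64.3 and 87.9). The colorectal marker CDX2 was above it in every line, at 59.1 in H4, 69.3 in 42MGBA and 70.1 in HCT116. HCT116, labelled colorectal, had EPCAM at the 97.0th and KRT19 at the 97.9th percentile of its arrays but KRT20, VIL1, LGALS4 and GPA33 below the median. Leucocyte and endothelial markers were below the median in every line, 0 of 6 above it.

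The genes fall into roles. BRCA1 and BARD1 form a ubiquitin ligase at breaks and PALB2 links BRCA1 to the strand-exchange machinery, in which the recombinase paralogs RAD51C and XRCC3, RAD51AP1, RAD52 and the translocases RAD54L and RAD54B also act. The MRE11, RAD50 and NBN complex senses ends, EXO1, DNA2, BLM and BRIP1 resect or unwind DNA, and ATM, ATR, TOPBP1, CHEK1 and CHEK2 form the signalling cascade. FANCB, FANCC, FANCE, FANCF, FANCG, FANCL and FANCM belong to the Fanconi core complex, which with UBE2T ubiquitinates FANCI and its partner, and MUS81 with EME1 cuts joint molecules. HELLS, a chromatin remodeller, and FAM111B, a protease gene, were listed with them as replication-linked genes. Many of these genes are transcribed at the G1/S transition by E2F factors.

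The E2F element was therefore sought in the promoters. Promoter windows from RefSeq (GRCh38.p14), 250 bases before to 50 after a gene's start, were matched for 29 of the 34 genes, and those of RAD54B, NBN, FANCI, DNA2 and FAM111B were not used here. The words TTTCCCGC, TTTCGCGC, TTTGCCGC and TTTGGCGC were searched on both strands, and 4 of the 29 genes held one in any of their windows. That is 13.8% of the members with a window, against 6.43% of the 10310 tested genes and 3.99% of all 27305 genes that have one. Counted by window, 3.31% of all 35116 windows held a word. The 4 genes were EXO1, TOPBP1, FANCC and HELLS, and their start-site stretches, 180 bases before and 30 from the start, are printed below because they carry the words. Each is on the gene's own strand, 5′ to 3′, with the E2F words in capitals and positions counted from 1 at the start and from -1 before it.

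EXO1 (chr1:241848024-241848233, forward strand): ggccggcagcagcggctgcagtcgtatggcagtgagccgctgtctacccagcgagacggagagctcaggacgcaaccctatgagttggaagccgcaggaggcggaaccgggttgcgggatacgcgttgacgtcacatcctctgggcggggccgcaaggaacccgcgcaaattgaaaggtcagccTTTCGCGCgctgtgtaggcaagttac
HELLS (chr10:94545608-94545817, forward strand): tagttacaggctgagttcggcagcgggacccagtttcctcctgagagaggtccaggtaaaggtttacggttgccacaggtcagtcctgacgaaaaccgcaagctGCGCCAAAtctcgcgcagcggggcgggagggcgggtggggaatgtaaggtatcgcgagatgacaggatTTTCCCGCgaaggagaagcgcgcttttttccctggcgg
TOPBP1 (chr3:133661912-133662121, reverse strand): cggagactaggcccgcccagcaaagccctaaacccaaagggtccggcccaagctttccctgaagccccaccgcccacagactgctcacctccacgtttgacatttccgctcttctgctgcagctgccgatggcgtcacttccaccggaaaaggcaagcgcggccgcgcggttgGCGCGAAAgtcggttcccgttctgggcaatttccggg
FANCC (chr9:95317680-95317889, reverse strand): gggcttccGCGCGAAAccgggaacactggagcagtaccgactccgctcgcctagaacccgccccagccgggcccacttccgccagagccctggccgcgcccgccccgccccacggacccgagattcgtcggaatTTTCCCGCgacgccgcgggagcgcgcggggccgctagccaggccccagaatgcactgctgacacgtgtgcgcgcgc

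HELLS holds words beginning at -76 and -8, FANCC at -172 and -46, TOPBP1 at -7 and EXO1 at 5. CCAAT, a word of the NF-Y factor, occurred in 16 of the 29 genes (55.2%, against 42.3% of tested genes). TTTGAA, a word of cell-cycle genes, occurred in 4 (13.8%, against 13.4%), and the GC box GGGCGG in 22 (75.9%, against 75.9%). A match is a description of letters in this window and not a binding site.

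**Figure D1:**
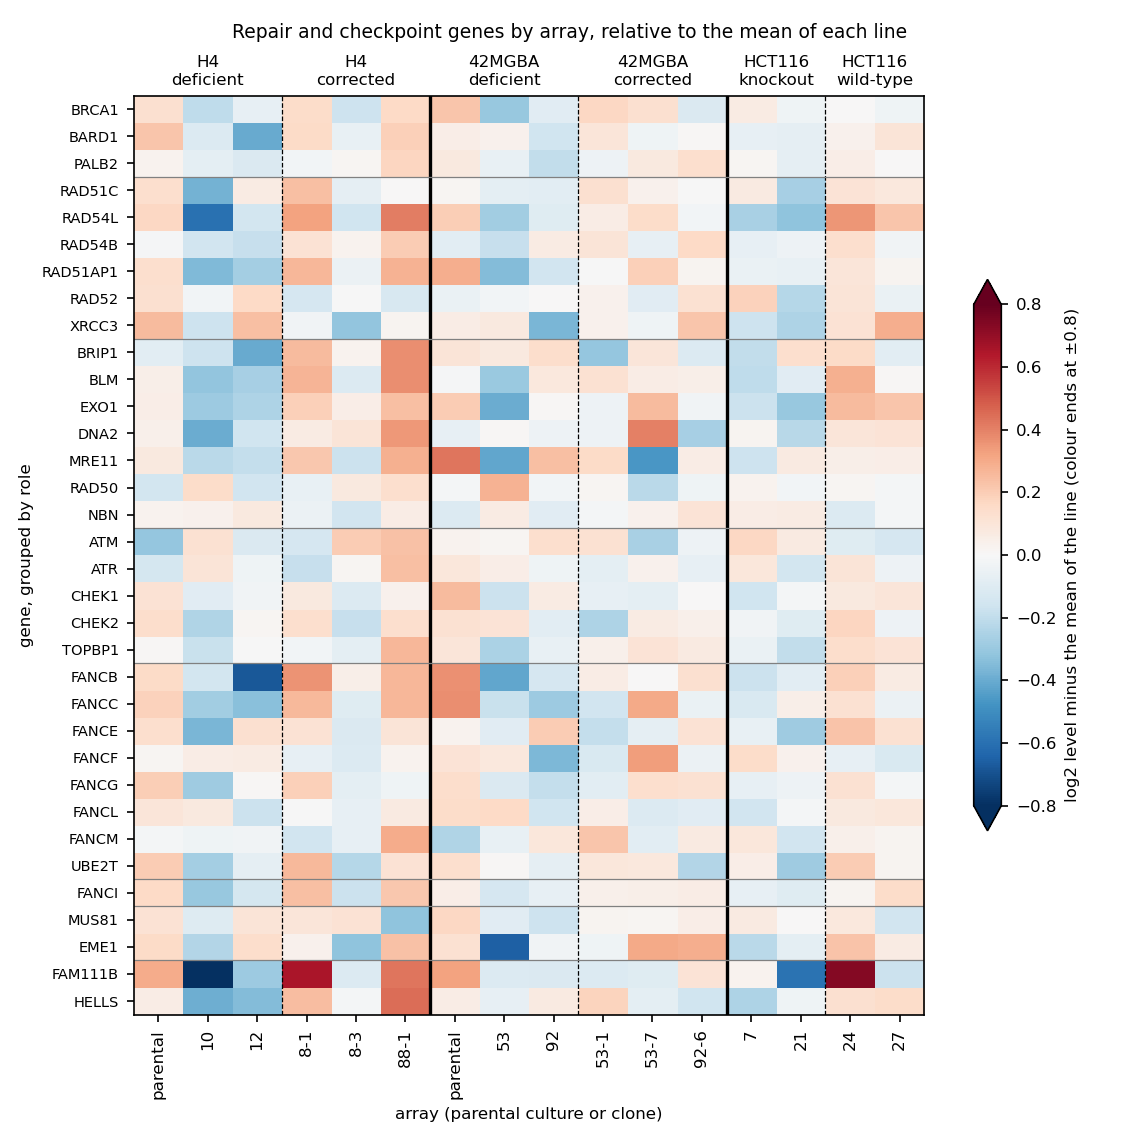
Level of each of the 34 genes on each array, as its log2 deviation from the mean of the gene's own line, with deficient or knockout arrays left of corrected or wild-type arrays. The median deviation over the genes was lowest in H4 clone 10 (-0.19) and highest in H4 clone 88-1 (0.21).

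In H4, no member passed the test between STAG2-deficient and corrected cultures (0 of 34 at an adjusted p under 0.05 in limma, where 3.31% of all tested genes were called), and 8 had an unadjusted p under 0.05, all lower (7.58% of tested genes were lower at that level). Most members had lower means in deficient cultures, 27 of 34 (45.6% of tested genes), with a median difference of -0.11 log2 units, against 0.02 over all tested genes. The differences were small, from -0.65 to 0.22.

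BRIP1, a helicase that binds BRCA1 and is also called FANCJ, had 8.55, 8.47 and 8.23 log2 units in deficient cultures and 8.89, 8.67 and 9.01 in corrected clones. All 3 deficient cultures lay below all 3 corrected clones, by -0.44 ± 0.13 (SE, limma, adjusted p = 0.0908). HELLS, which remodels chromatin for DNA methylation, had 8.60, 8.16 and 8.20 in deficient cultures and 8.79, 8.53 and 8.99 in corrected clones. The parental culture overlapped clone 8-3, while clones 10 and 12 lay below every corrected clone (difference -0.45 ± 0.14, limma, adjusted p = 0.0949). RAD54B had 6.99, 6.85 and 6.82 in deficient cultures and 7.12, 7.03 and 7.21 in corrected clones, a separation of groups with a difference of -0.23 ± 0.10 (limma, adjusted p = 0.229). DNA2, the other member whose arrays did not overlap, had 8.02, 7.59 and 7.82 in deficient cultures and 8.05, 8.08 and 8.33 in corrected clones. In all, 3 members were separated toward lower values (8.68% of tested genes) and 0 toward higher values (12.1%).

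BLM, the helicase mutated in Bloom syndrome, was 7.78, 7.42 and 7.47 in deficient cultures and 8.01, 7.62 and 8.10 in corrected clones, and FANCB 7.41, 7.10 and 6.57 in deficient cultures and 7.61, 7.30 and 7.52 in corrected clones. Both had 1 deficient culture, the parental line, inside the range of the corrected clones (differences -0.36 ± 0.14, adjusted p = 0.204, and -0.45 ± 0.19, adjusted p = 0.262, limma). FAM111B had the lowest difference, -0.65 ± 0.30, with 8.51, 7.24 and 7.92 in deficient cultures and 8.87, 8.11 and 8.64 in corrected clones. BRCA1, which is central to choosing this pathway, differed by -0.09 ± 0.14 (95% interval -0.39 to 0.20), CHEK1 by 0.00 (-0.23 to 0.22) and FANCL by 0.00 (-0.22 to 0.22). Leaving out the parental cultures, where 4.88% of tested genes were called, brought 3 members past the test: FANCB, -0.64 (adjusted p = 0.0319, limma), HELLS, -0.59 (0.0317), and RAD51AP1, -0.48 (0.0372). Without the H4 parental array alone, HELLS was the 1 member called (adjusted p = 0.0242, limma, 4.86% of tested genes called). With each array left out in turn, the limma adjusted p ran from 0.0242 to 0.301 for HELLS and from 0.0776 to 0.690 for FANCB.

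In HCT116, knockout clones were lower than wild-type clones in 28 of 34 members (53.4% of tested genes), with a median difference of -0.13, against -0.01 over all tested genes. No member was called (0 of 34, limma, 0.131% of tested genes called), and 3 had an unadjusted p under 0.05 (7.83% of tested genes), all lower. Both knockout clones lay below both wild-type clones in 18 members (22.1% of tested genes). They lay above both wild-type clones in 3 (18.5%), NBN, ATM and FANCF, although FANCF ranked no higher than the 47.8th percentile in HCT116. With 2 clones a group such separation, in either direction, is met in 40.7% of tested genes.

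EXO1, the resection nuclease, had 9.78 and 9.64 log2 units in knockout clones and 10.20 and 10.17 in wild-type clones (difference -0.47 ± 0.17, limma, adjusted p = 0.521). RAD54L, a translocase of strand exchange, had 7.54 and 7.48 in knockout clones and 8.15 and 8.02 in wild-type clones (-0.58 ± 0.22, adjusted p = 0.552, limma). In both genes the groups stood apart by more than the gap between clones of a group. XRCC3 had 7.22 and 7.14 in knockout clones and 7.50 and 7.67 in wild-type clones (-0.41 ± 0.18, adjusted p = 0.610, limma). FANCE, of the core complex, had 7.81 and 7.58 in knockout clones and 8.10 and 7.99 in wild-type clones, and TOPBP1, the activator of ATR, 9.88 and 9.74 in knockout clones and 10.07 and 10.04 in wild-type clones. These groups did not overlap either, with differences of -0.35 ± 0.17 and -0.25 ± 0.13 (adjusted p = 0.652 and 0.687, limma).

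In 42MGBA, no member was called (0 of 34, limma, with 0% of tested genes called) and 0 members had an unadjusted p under 0.05 (3.95% of tested genes). No member's groups were separate (8.91% of tested genes), 22 of 34 means were lower in deficient cultures (60.3%), and the median difference was -0.08, against -0.03 over all tested genes. EME1, the partner of MUS81, was 5.45, 4.68 and 5.30 in deficient cultures and 5.29, 5.63 and 5.62 in corrected clones, where pre-Cre clone 53 was the lowest array (-0.37 ± 0.19, adjusted p = 1.00, limma). BRIP1 had 6.24, 6.21 and 6.27 in deficient cultures and 5.83, 6.23 and 6.02 in corrected clones, a difference of 0.22 ± 0.13 opposite in sign to that in H4 (adjusted p = 1.00, limma). RAD50, RAD54B and TOPBP1 followed with 0.16, -0.13 and -0.15. BRCA1, RAD54B, ATR, CHEK2, FANCB, FANCM and FANCF lay below the array median on every 42MGBA array, so the counts for this line include members at low levels. With the parent clone as a block, EME1 moved to -0.59 (limma adjusted p = 0.555).

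**Figure D2:**
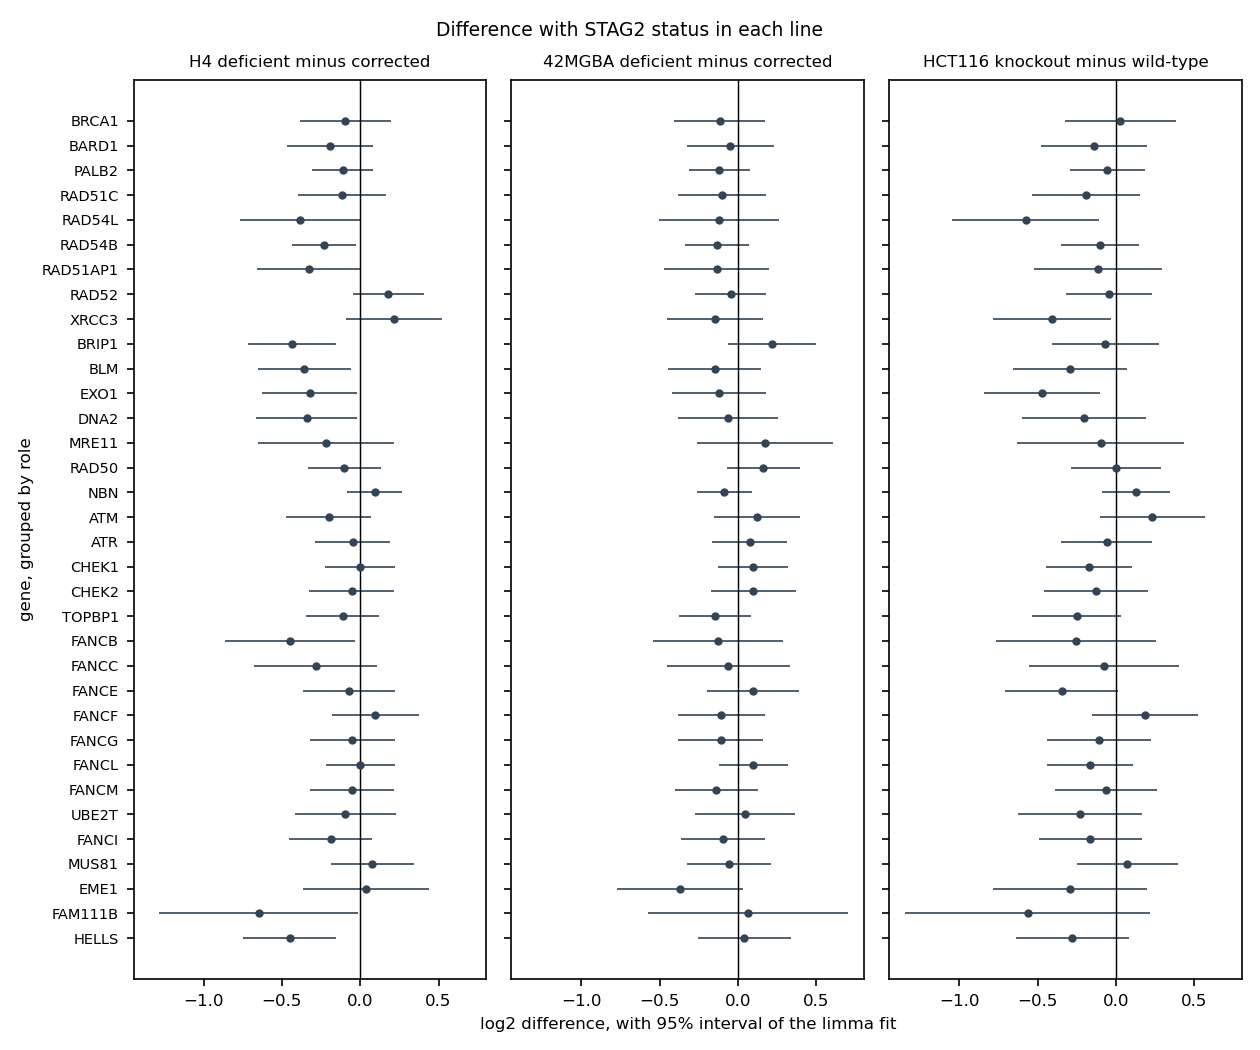
Difference of each member, deficient or knockout minus corrected or wild-type, in H4, 42MGBA and HCT116, in log2 units with 95% intervals. Most points lie left of 0 in H4 (27 of 34) and HCT116 (28 of 34), and no member passed the test in any line.

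Averaged over the 3 lines, no member passed (0 of 34, where limma called 0.139% of tested genes). At an unadjusted p under 0.05 there were 8, all lower (5.84% of tested genes). EXO1 came closest (-0.31 ± 0.09, limma adjusted p = 0.240), then RAD54L (-0.36, 0.275), BLM (-0.27, 0.311), HELLS (-0.23, 0.388) and RAD54B (-0.16, 0.394). The sign was below 0 in both H4 and HCT116 for 24 of 34 members (23.1% of tested genes) and in all 3 lines for 15 (14.6%), among them BLM, EXO1, RAD54L and BARD1. RAD54B, FANCB and FANCM are also among the 15 and lay below the array median on every 42MGBA array. No member was above 0 in all 3 lines (0 of 34, against 10.5%). The difference between the H4 and HCT116 effects was called for 0 members (0.293% of tested genes) and had an unadjusted p under 0.05 for 2 (13.5%), with XRCC3 nearest (0.63 ± 0.23, limma adjusted p = 0.241). The difference between the H4 and 42MGBA effects was called for 0 members (0.254%) and had such an unadjusted p for 2 (11.3%), with BRIP1 nearest (-0.65 ± 0.19, limma adjusted p = 0.179).

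The levels of the members and of the cell-cycle lists were set side by side on each array, with no test of whether they move together. The median deviation of the 34 members from their line's mean was 0.11, -0.19 and -0.12 on the H4 deficient arrays (parental, 10, 12) and 0.12, -0.07 and 0.21 on the corrected arrays (8-1, 8-3, 88-1). The 43 G1/S and replication genes had 0.16, -0.33 and -0.05 on the same deficient arrays and 0.23, -0.17 and 0.19 on the corrected ones. Both lists had medians above 0 on the parental, 8-1 and 88-1 arrays. Their medians were below 0 on the arrays of clones 10, 12 and 8-3. Clone 12 stood near clone 10 for the members, but for the G1/S genes it lay between clone 10 and the parental line. On the H4 arrays the 30 mitotic genes had 0.18, -0.33 and -0.05 in deficient cultures and 0.29, -0.14 and 0.02 in corrected clones.

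In HCT116 the members' median was -0.06 and -0.08 in knockout clones 7 and 21 and 0.10 and 0.02 in wild-type clones 24 and 27, and the G1/S list had -0.15 and -0.14 in knockout clones and 0.19 and 0.09 in wild-type clones. There the 30 mitotic genes stood at -0.02 and 0.11 in knockout clones and -0.05 and -0.05 in wild-type clones. In 42MGBA the members' median was 0.10, -0.08 and -0.07 in deficient cultures (parental, 53, 92) and 0.03, 0.04 and 0.03 in corrected clones. The spread of this median within groups had a pooled SD of 0.108. The part that proliferation plays in the members' differences was not tested.

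**Figure D3:**
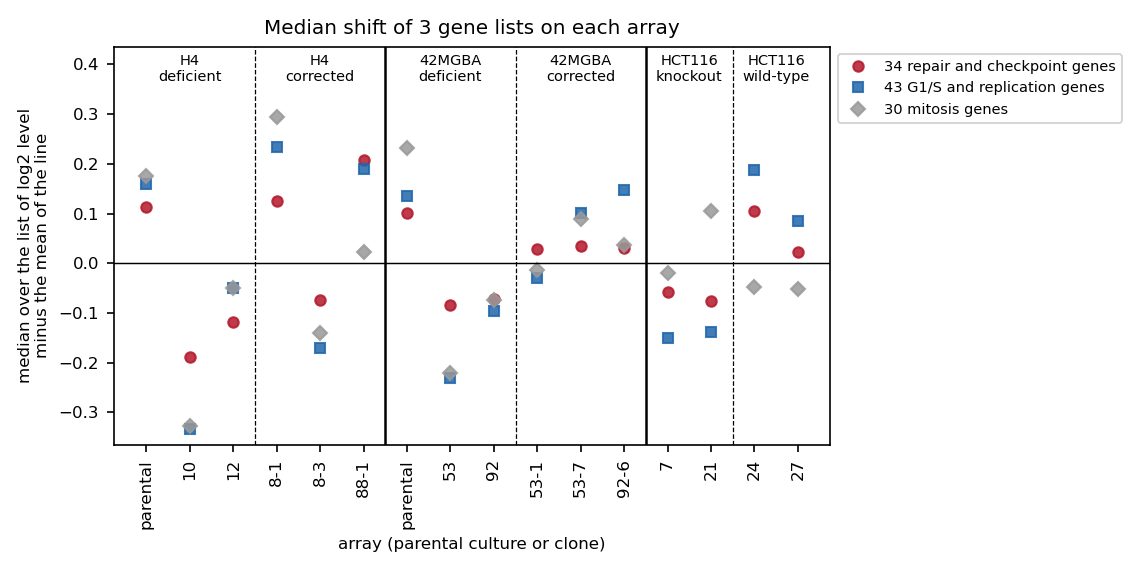
Median log2 deviation from the line's mean for the 34 members, the 43 G1/S genes and the 30 mitotic genes on each array, deficient or knockout arrays left of corrected or wild-type arrays within a line. The H4 parental array (0.11 for members) sits apart from clones 10 (-0.19) and 12 (-0.12).

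Of 168 tested genes in 7 related lists, 0 were called by limma within any line, and 16 in H4, 20 in HCT116 and 3 in 42MGBA had an unadjusted p under 0.05 (9.52%, 11.9% and 1.79% of them, against 16.4%, 7.83% and 3.95% of all tested genes). Of 43 G1/S and replication genes, 40 had lower means in H4 deficient cultures (median difference -0.17), 43 in HCT116 knockout clones (-0.28) and 38 in 42MGBA deficient cultures (-0.13), with RFC5, a clamp-loader subunit, at -0.68 in HCT116 (limma adjusted p = 0.244). Of 30 mitotic genes, 25 had lower means in H4 deficient cultures (-0.10) and 24 had higher means in HCT116 knockout clones (0.09), as did 15 of 21 p53 targets in HCT116 (0.10), where TP53I3 had 0.61 (limma adjusted p = 0.221). The median deviation of the p53 targets was 0.18 in knockout clone 7 but -0.02 in clone 21. It was 0.00 and -0.15 in wild-type clones 24 and 27, so the knockout and wild-type clones overlapped. Of 35 further recombination and crosslink genes, 22 had lower means in H4, 25 in HCT116 and 24 in 42MGBA, with median differences of -0.07, -0.05 and -0.05. The 4 genes with an E2F word had a median of -0.30 in H4, against -0.09 for the 25 without one, -0.27 in HCT116, against -0.12, and -0.09 in 42MGBA, against -0.06, with no test of that split.

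More members differed between lines than with STAG2 status. Between H4 (6 arrays) and HCT116 (4 arrays), 22 of 34 members were called (limma, adjusted p under 0.05, where 61.8% of all tested genes were called), 18 lower in H4 (33.6% of tested genes) and 4 higher, FANCF among them (28.2%). FANCF passed the filter on low values only through H4, where it is high, so its place in these counts is a description. The share called, 64.7%, is near that of all genes, and the median member difference was -0.34, against -0.05. The G1/S list was lower in H4 to a larger degree, with a median of -0.65 and 35 of 43 genes called lower, and 16 of 30 mitotic genes were called lower and 4 higher. Line and any array processing that went with it cannot be told apart.

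FANCF, the adaptor of the Fanconi core complex, was above the array median on the 6 H4 arrays alone, so it passed the filter on low values only through the line where it is high. It ranged from 7.68 to 7.85 log2 units in H4 (median 7.81), against 5.99, 6.10, 5.88 and 5.83 in HCT116 clones 21, 7, 24 and 27. The arrays of the lines did not overlap, and the difference, 1.84 log2 units, is given as a description, since no HCT116 array ranked FANCF above the 47.8th percentile. ATM, the kinase that responds to double-strand breaks, was higher in H4, from 8.31 to 8.85 (median 8.62) in H4, against 7.89, 7.99, 7.73 and 7.69 in HCT116 (0.79 ± 0.10, adjusted p = 6.75e-06, limma). RAD50, with a difference of 0.48 ± 0.09 (adjusted p = 0.000198, limma), completes the 3 members whose H4 arrays all lay above HCT116 (21.9% of tested genes). ATR, the replication-stress kinase, was called with 0.25 ± 0.09 and overlapping arrays (limma adjusted p = 0.0212). It was called in 16 of 19 settings, which include the main fit and the fits with 1 array left out.

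RAD51C, a recombinase paralog, ranged from 7.16 to 7.78 in H4 (median 7.57), against 8.67, 9.01, 9.04 and 9.02 in HCT116 clones 21, 7, 24 and 27. It was 2.63-fold lower in H4 (-1.40 ± 0.10, limma, adjusted p = 1.69e-08). CHEK2, the kinase downstream of ATM, was 6.08 to 6.46 in H4 (median 6.39), against 7.44, 7.51, 7.71 and 7.50 in HCT116, a 2.33-fold lower level (-1.22 ± 0.10, adjusted p = 5.48e-08, limma). CHEK2 has partial copies elsewhere in the genome that its probes may also read. RAD54B was 6.82 to 7.21 in H4 (median 7.01), against 8.04, 8.01, 8.21 and 8.05 in HCT116 (-1.07 ± 0.08, adjusted p = 9.49e-09, limma).

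HELLS differed by -1.01 ± 0.11 in H4 (8.16 to 8.99, median 8.57, against 9.52, 9.31, 9.69 and 9.71 in HCT116 clones 21, 7, 24 and 27), and BLM was 2.01-fold lower in H4 (7.42 to 8.10, median 7.70, against 8.64, 8.53, 9.02 and 8.74). Their arrays were likewise separate (adjusted p = 1.11e-06 and 1.36e-06, limma). FANCE, FANCL and FANCI of the Fanconi pathway had differences of -0.92, -0.67 and -0.70, RAD52 of -0.57 and EME1 of -0.85 (adjusted p from 3.15e-06 to 0.000141, limma). The other calls, all lower in H4, were CHEK1, BRIP1, BARD1, FANCM, XRCC3, UBE2T, DNA2 and BRCA1, with differences of -0.28 to -0.50. BRCA1 (-0.28 ± 0.11, limma adjusted p = 0.0346) was called in 11 of 19 settings, and the other 7 in every one. In all, 13 members had every H4 array below every HCT116 array (25.2% of tested genes).

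**Figure D4:**
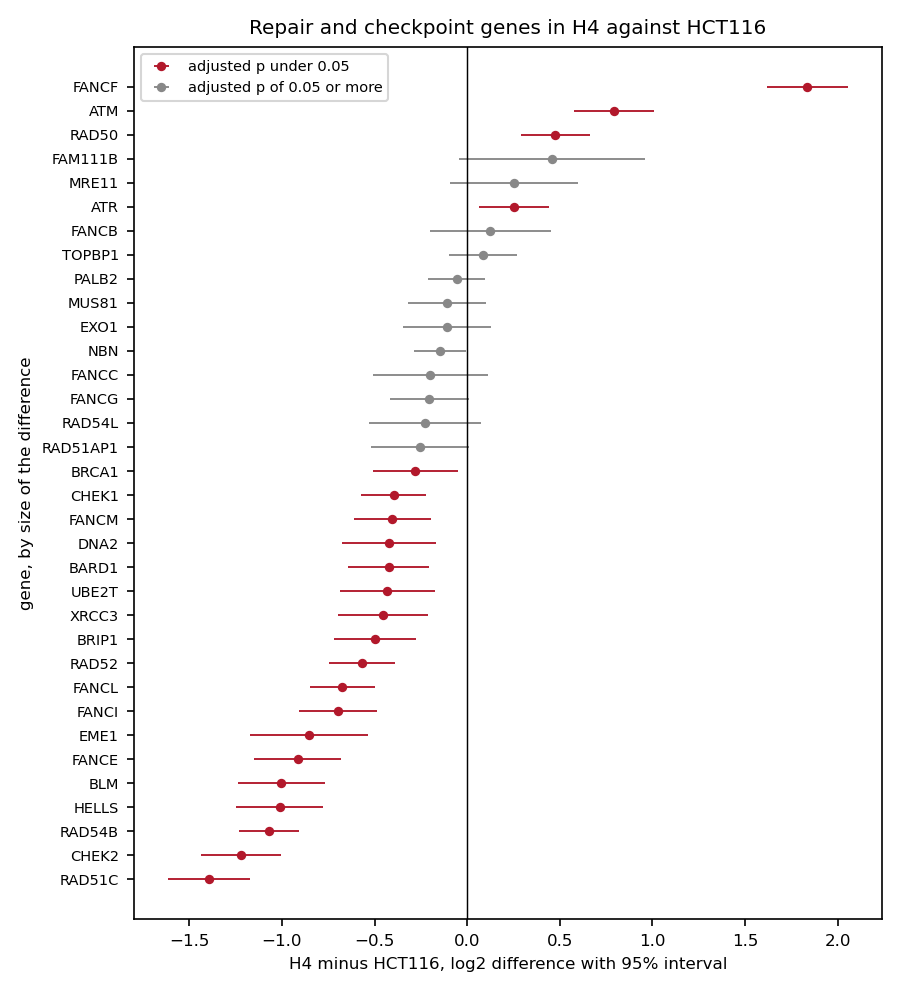
Difference of each member in H4 minus HCT116, in log2 units with 95% intervals, with called members marked. FANCF is at 1.84 and RAD51C at -1.40, and 22 of 34 members were called, 18 of them lower in H4. FANCF is marked but passed the filter on low values only through H4, so its call is a description.

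The other 12 members were not called between the lines: PALB2, RAD54L, RAD51AP1, EXO1, MRE11, NBN, TOPBP1, FANCB, FANCC, FANCG, MUS81 and FAM111B. For some of them the intervals show how far apart the lines could be: EXO1 -0.35 to 0.13, TOPBP1 -0.10 to 0.27 and PALB2 -0.21 to 0.10 log2 units. These intervals do not bound the rest of the 12. The largest estimates among them, H4 minus HCT116, were FAM111B at 0.46, RAD51AP1 at -0.25, MRE11 at 0.25 and RAD54L at -0.23.

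Each member's difference between H4 and HCT116 was also set beside those of its neighbours in the genome, with no test. Of all tested genes 55.6% were lower in H4, and 67.1% on chromosome 8, 56.8% on chromosome 14 and 73.2% on chromosome 22. Of the 19 tested genes nearest RAD54B on chromosome 8, 16 were lower in H4 with a median of -0.75, beside its own -1.07. NBN, also on chromosome 8, had 16 of 19 neighbours lower (median -0.58) but was itself at -0.14 and not called. Near XRCC3, on chromosome 14, 19 of 20 were lower (median -0.34, beside -0.46). RAD50 had 0.48 beside a median of 0.37, and ATR 0.25 beside 0.49. CHEK2, on chromosome 22, had -1.22 beside -0.28 with 18 of 20 lower. RAD51C, FANCF, ATM and EME1 had -1.40, 1.84, 0.79 and -0.85 beside neighbour medians of -0.16, 0.13, -0.23 and 0.00. The part that the copy number of these regions plays was not tested.

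For 42MGBA, each member's rank within an array, as a percentile of all probe sets, was compared with the same gene's rank in the other lines. Of 34 members, 18 ranked below every H4 and HCT116 array (25.8% of tested genes), 1 ranked above all of them (25% of tested genes), and the remaining 15 did neither. The 18 were BRCA1, PALB2, RAD51C, RAD54B, RAD51AP1, RAD52, BRIP1, BLM, EXO1, RAD50, ATR, CHEK2, TOPBP1, FANCB, FANCC, FANCG, FANCI and FANCM. Of these, BRCA1, RAD54B, ATR, FANCB and FANCM were above the array median on 10 arrays and CHEK2 on 8, none of them from 42MGBA. These members passed the filter on low values only through H4 and HCT116, where they rank higher. Their low ranks in 42MGBA are therefore tied to the filter and are given as a description. The 42MGBA arrays were on their own scale, so line and array processing cannot be told apart.

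BRCA1 averaged the 43.3rd percentile in 42MGBA (SD 3.04, n = 6), against 80.2 in H4 (SD 1.98, n = 6) and 83.3 in HCT116 (SD 0.47, n = 4). FANCB, the X-linked Fanconi gene, averaged 24.3 in 42MGBA, against 64.1 in H4 and 62.8 in HCT116. CHEK2 averaged 29.1 in 42MGBA, against 50.7 in H4 and 68.4 in HCT116, and ATR 48.0, against 76.9 and 74.2. All of these genes lay below the other lines on every 42MGBA array, and all passed the filter only through H4 and HCT116. MUS81, the crossover nuclease, was the exception above, with 87.7 in 42MGBA (SD 0.72), against 73.7 in H4 and 75.4 in HCT116. CHEK1 (90.6 in 42MGBA, against 91.1 in H4 and 93.2 in HCT116) overlapped H4 in rank, and FANCF, at 43.7, against 71.1 in H4 and 45.3 in HCT116, overlapped HCT116 but not H4.

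**Figure D5:**
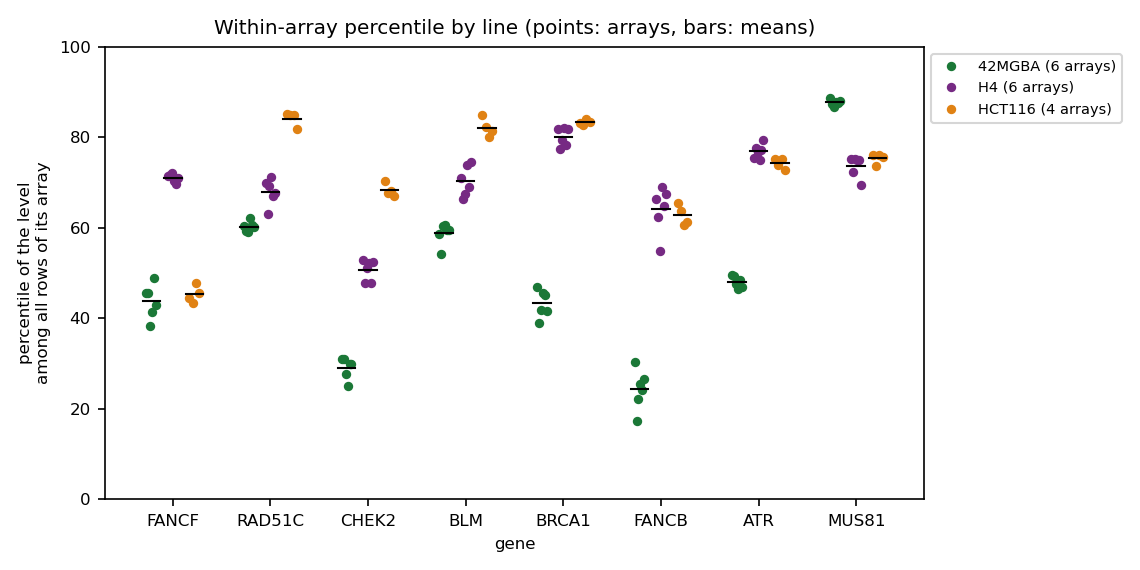
Within-array percentile of FANCF, RAD51C, CHEK2, BLM, BRCA1, FANCB, ATR and MUS81 on each array, by line, with 42MGBA left of H4 and HCT116. BRCA1 averaged 43.3 in 42MGBA, against 80.2 in H4 and 83.3 in HCT116, and MUS81 alone of those drawn was higher in 42MGBA.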

How the data were processed

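RNA from 16 cultures, each on its own Affymetrix Human Gene 1.0 ST array, was measured. The deposited table holds log2 expression values of 33297 probe sets, which the authors summarised by RMA in Affymetrix Expression Console per the labels; versions and settings are not given in the sources used here. Detection calls and scan batches were not used here, and the number of arrays limits the precision. Of the rows, 19460 carried 1 gene, 1754 several and 12083 none in the platform annotation; symbols were updated through Entrez identifiers to RefSeq (GRCh38.p14). The row with the highest mean stood for a gene, and genes above the array median on at least 2 arrays were tested, 12978 in all. The arrays of a line correlated at r of at least 0.986.

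The 16 arrays entered 1 fit of 6 groups in limma 3.58.1 (R 4.3.3), with two-sided p-values adjusted by Benjamini-Hochberg over all tested genes and a threshold of 0.05. The fit was tested on simulated data: of genes changed by 1 log2 unit it called 95% in H4, 93% in 42MGBA, 93% in HCT116 and 99% between H4 and HCT116. False calls numbered 11, 8, 12 and 6 in the same order. The simulated noise was independent between arrays, with no shared parent clones. Every member difference with STAG2 status was smaller than 1 log2 unit, so these shares do not tell how often changes of that size would be called. Groups came from the sample titles. Replicate numbers there name clones only; in 42MGBA the clone names tie 53-1 and 53-7 to 53, and 92-6 to 92, which gave the block. Members and gene lists were chosen with earlier results of these data known. Members past the test were named, filled to 5 by the smallest p, with up to 12 in full between H4 and HCT116, and up to 3 genes of each other list. Ranks were compared only for the same gene between lines. Alternatives were other filters, an intensity trend, a line fitted alone, averaged or blocked parent clones, no parental arrays, and each array left out.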

Additional observations from a re-analysis of the deposited data

How the results depend on the processing

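The main results here are counts of members called and median member differences. Under an alternative 211 such values stayed close to the main value and 2 moved, with no median reversed in sign. A count was taken as close if equal or similar in size. For a median, close meant a move of less than 0.108 log2 units, the pooled SD within groups. That margin is about as large as the within-line medians (-0.11 in H4, -0.08 in 42MGBA and -0.13 in HCT116). A within-line median near 0 could therefore still count as close, and closeness does not show that these medians are stable. Without pre-Cre clone 53, the 42MGBA median was -0.01, with 17 of 34 members lower. In H4, where no member was called, 3 were called without the parental arrays and 1 without the H4 parental array alone, and leaving out any other array gave 0. The median member difference with 1 array left out ran from -0.18 to -0.07 in H4, -0.11 to -0.01 in 42MGBA, -0.17 to -0.11 in HCT116 and -0.37 to -0.29 between H4 and HCT116, where 20 to 24 members were called. With the parent clone of 42MGBA as a replicate block, 0 members were called and the median was -0.11; the block changed no other call among members. Counts over all genes moved more: 429 in H4 became 34 with the line fitted alone, 165 with clones of 1 parent averaged and 169 to 631 with 1 array left out. In HCT116, 17 became 4 under the stricter filter, 11 with an intensity trend, 3 alone, 10 averaged and 5 to 77. The 18 of the mean became 38 without parental arrays, 7 averaged, 46 over H4 and HCT116 only and 3 to 61. The 38 and 33 for the differences of effects became 18 and 20 under the stricter filter, 97 and 83 without parental arrays, 13 and 6 averaged, 7 for the second with the block, and 10 to 140 and 12 to 111 with 1 array left out, while 42MGBA had 0 to 9. Where an array was left out of a pair of HCT116 clones, the lone clone was assumed to vary like the other groups. The cause of these shifts was not tested. Few clones per group limit what within-line comparisons can detect, and signal over background was not given.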

Other observations

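Between H4 and HCT116, where limma called 61.8% of all tested genes (33.6% lower in H4 and 28.2% higher), repair genes outside the list were called as follows. SFR1, known from yeast as a helper of strand exchange, differed by -2.44 ± 0.16 log2 units in H4 minus HCT116 (limma, adjusted p = 4.23e-09), and 16 of 35 further recombination and crosslink genes were called lower and 6 higher. Among 18 end-joining genes 8 were lower and 4 higher, led by XRCC4, the partner of DNA ligase IV, at -1.01 ± 0.10 (limma, adjusted p = 5.56e-07). Of 16 checkpoint clamp and mediator genes 10 were lower and 2 higher, with CDC25A, the phosphatase that CHEK1 targets, at -1.18 and HUS1, a clamp subunit, at 0.75. Of 5 mismatch repair genes 3 were higher and 2 lower, with MSH3 at 1.08 and PMS1 at -0.87 (all limma calls at an adjusted p under 0.05).

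With STAG2 status none of these genes was called in any line by limma. The end-joining, checkpoint and mismatch lists had median differences of -0.04, -0.04 and -0.04 in H4, -0.09, -0.09 and -0.11 in HCT116, and -0.03, -0.10 and 0.00 in 42MGBA. The nearest to a call in H4 were NHEJ1 (-0.43, adjusted p = 0.113), BABAM1 (0.27, 0.114) and MLH3 (0.57, 0.120), and in HCT116 MSH6 (-0.40, adjusted p = 0.493) and CDC25A (-0.58, 0.505).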
